A study of Capra hircus with 30 samples.

Results

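RIC8B and 9 genes of gonadotropin cAMP signalling were examined in granulosa cell libraries of Ji'ning grey goats. Granulosa cells are the somatic cells around the oocyte. The genes were found by matching their symbols to the NCBI gene numbers of the table, which gave 9 of the 10 genes among 20125 features, and GNAS was not analysed here. RIC8B was selected on its FPKM values in large follicles, where it was high in HLG and mostly listed at 0 in LLG. That comparison is therefore described without a test, for RIC8B and for the other genes, and RIC8B is tested only among libraries of medium and small follicles. The other genes were listed with RIC8B under this pathway, RIC8A and GNAL as relatives of its parts. They too were chosen with results of these data known.

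The 30 libraries were made from total RNA and fall into 6 groups of 5, which cross 2 fertility classes with 3 follicle sizes. HLG, HMG and HSG are granulosa cells of large, medium and small follicles of the high fertility class (in GEO more than 3 young at a birth), and LLG, LMG and LSG are those of the low fertility class (fewer than 2). The study's methods give at least 3 and at most 2 instead. All groups share the breed, and neither a treatment nor the age of the goats is described. Per the methods, each fertility class stood for a number of goats whose follicles were gathered, and its granulosa cells were split by follicle size into samples of a few cells. Which goats a library holds is not stated, so p-values measure the spread between libraries, which may be technical. Libraries are named by group and label number (5, 7, 8, 9 or 10).

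FSH and LH bind the receptors FSHR and LHCGR on granulosa cells, which act through the stimulatory G protein Gs. Its alpha subunit turns on adenylyl cyclases, the cAMP they make releases the catalytic subunits of protein kinase A from the regulatory ones, and the kinase phosphorylates CREB1, a transcription factor. Phosphodiesterases such as PDE4D break cAMP down again. RIC8B is a chaperone that helps to fold the alpha subunits of Gs and of the olfactory G protein, and RIC8A does so for other G protein classes. In granulosa cells this pathway drives follicle growth and steroid synthesis.

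Values are FPKM, fragments counted relative to gene length and to the mapped fragments of the library, so levels of different genes can be set side by side. Most values of the table are 0. Between 301 and 9256 features were above 0 in a library, and the libraries LLG-7, HSG-5, LLG-5, LLG-10, HLG-8 and HMG-8 had fewer than the rest, between 301 and 1521. The number was 3561 ± 2414 in HLG, 2091 ± 2242 in LLG, 5337 ± 2415 in HMG, 7774 ± 1325 in LMG, 4357 ± 2141 in HSG and 5598 ± 1838 in LSG (SD, n = 5 each). Genes that every cell uses were also at 0 in many libraries. Of 14 such genes, EEF1A1 was above 0 in 26 libraries, ACTB in 23 and TBP in 2. Hence a gene is called listed at 0, not absent, and single values are given in place of means. Of the markers of granulosa cells, INHBA was above 0 in 14 libraries, CYP19A1 in 10, LHCGR in 4 and FSHR in 1. The 7 granulosa cell markers in the table had a median of 4 libraries above 0, against 5 for all features with a symbol, so the labelled cell type could not be checked by them. Markers of other cells were as rare, with medians of 2 libraries for 5 oocyte genes, 4 for 2 theca genes, 4 for 4 immune genes, 3.5 for 2 erythroid genes and 5.5 for 4 endothelial genes. Read totals were not used here, and FPKM values alone do not give the depth. In such libraries fewer cells of a type and less RNA per cell cannot be told apart.

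RIC8B (NCBI gene 102191310), the chaperone of Gs alpha, was above 0 in 21 of 30 libraries, and 3.09% of all features were above 0 in at least as many. In HLG its FPKM was 21.34, 8.97, 9.87, 3.13 and 1.25 in the libraries numbered 5, 7, 8, 9 and 10. In LLG it was 2.98 in LLG-8 and listed at 0 in the other 4. All 5 HLG libraries were thus above 0, 4 of them lay above every library of the other groups, and HLG-10 lay below LLG-8. The difference in mean log2(FPKM + 1) was 2.49, which is a description of the pattern that RIC8B was picked for. It was 1.83 without HLG-5, HSG-5, LLG-5 and LLG-7, which are absent from the study's mapping list, and 4.94 with 0.1 added to the FPKM in place of 1. The pattern of 5 HLG libraries and at most 1 LLG library above 0 was found in 17 features (0.0845% of 20125). LLG-8, the LLG library with RIC8B, had 5843 features above 0, and the other 4 LLG libraries had 301 to 2446. HLG-8 had 9.87 FPKM of RIC8B with only 1452 features above 0.

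**Figure D1:**
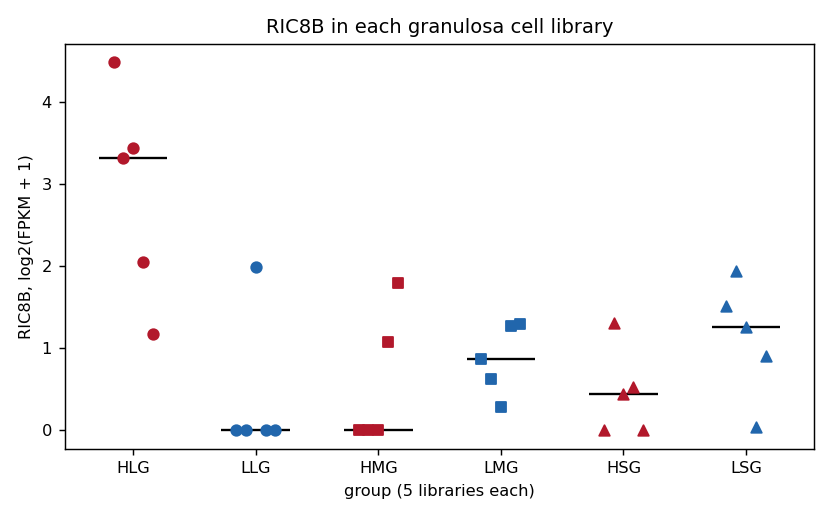
RIC8B in each library as log2(FPKM + 1), by group (5 libraries each), with high fertility in red, low fertility in blue and a black line at the median. HLG spans 1.25 to 21.34 FPKM and LLG has 1 library above 0, while in medium and small follicles all 10 low fertility libraries and 5 of 10 high fertility libraries are above 0.

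The level of RIC8B was also placed among the features detected in the same library, which does not use the scale of FPKM. This share depends on the number of features above 0, which was 1452 in HLG-8 and 7554 in HLG-10. The HLG values are also those on which RIC8B was picked. In HLG it stood above 91.0%, 90.4%, 80.4%, 80.6% and 74.0% of the features above 0 (libraries 5, 7, 8, 9 and 10). In the 16 other libraries with RIC8B it stood above 15.6% to 89.7% of them, with a median of 67.7%. The ranges overlap, and LLG-8 was at 87.2%.

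Whether the fertility classes differed in RIC8B was then tested in medium and small follicles, which the choice of the gene did not use. In HMG the FPKM was 0, 0, 0, 1.10 and 2.46, and in LMG it was 0.82, 0.54, 0.22, 1.41 and 1.46 (libraries 5, 7, 8, 9 and 10). All LMG libraries were above 0, but HMG-10 was higher than any of them. The log2 difference of HMG against LMG was -0.30 ± 0.61 (SE, 95% interval -1.53 to 0.94, adjusted p = 1.0 in limma over 6058 features). In HSG the values were 0, 1.47, 0.36, 0.44 and 0, and in LSG 1.86, 2.83, 1.39, 0.03 and 0.88. LSG was above 0 in all 5 libraries and HSG in 3, and the groups overlapped. The log2 difference of HSG against LSG was -0.68 ± 0.61 (SE, 95% interval -1.92 to 0.56, adjusted p = 0.929 in limma). Averaged over both sizes it was -0.49 ± 0.43 (SE, 95% interval -1.36 to 0.39, adjusted p = 0.940 in limma). The SE was estimated over all 6 groups, HLG and LLG included. Fitted on the pair of groups alone, it was 0.49 for RIC8B in HMG against LMG and 0.62 for RIC8B in HSG against LSG.

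Neither size passed an exact permutation test over libraries (two-sided, n = 5 each, p = 0.508 for HMG against LMG and 0.143 for HSG against LSG, adjusted over both 0.508 and 0.286, where 0.00794 is the smallest p possible). The estimates in medium and small follicles were thus below 0, opposite in sign to the described difference in large follicles. Their 95% intervals in limma included 0. The number of libraries above 0 did not pass Fisher's exact test either, with 2 of 5 HMG against 5 of 5 LMG (p = 0.167, adjusted 0.333) and 3 of 5 HSG against 5 of 5 LSG (p = 0.444, adjusted 0.444). Of all features, 2.35% had all 5 LMG and at most 2 HMG libraries above 0, and 1.56% had all 5 LSG and at most 3 HSG libraries. RIC8B was above 0 in 10 of 10 low fertility libraries of these sizes (2.12% of all features were) and in 5 of 10 high fertility ones. Both together, with at most 5 of 10 in high fertility, held for 0.179% of all features, a count given as a description. The libraries HMG-8 and HSG-5, with few features above 0, are among the 5 at 0. Leaving out any one of the 3 HMG libraries at 0 gave a log2 difference of -0.15, and leaving out either HSG library at 0 gave -0.56. Without HMG-10 the difference in medium follicles was -0.60.

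The order of the groups by median FPKM of RIC8B was HLG (8.97), LSG (1.39), LMG (0.82), HSG (0.36), and last HMG and LLG with a median of 0. Every pair of neighbours in this order overlapped in range. Between medium and small follicles, averaged over fertility, the log2 difference was -0.07 ± 0.43 (SE, 95% interval -0.95 to 0.80, adjusted p = 0.998 in limma). Its sign changed without HSG-7 (0.03) or LSG-7 (0.03). Large follicles include the libraries on which RIC8B was picked, so it was not tested against them.

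RIC8A (NCBI gene 102188833), the related chaperone of other G alpha subunits, was above 0 in 6 libraries. It was at 11.25 in HLG-5, 2.45 in HLG-9, 0.38 in LMG-8, 0.85 in LMG-9, 3.97 in HSG-7 and 3.28 in LSG-7, and at 0 in LLG and HMG. All 6 libraries also had RIC8B above 0, and HLG-5 was the highest library for both genes. RIC8B was above 0 in 21 of 30 libraries and was picked on HLG-5 among others, so nothing is read from this overlap. GNAL (100861281) encodes the alpha subunit of the olfactory G protein, a client of RIC8B. It was above 0 in 7 libraries, with 0 of them in HLG, and its highest value was 1.62 in HMG-8, where RIC8B was at 0. Of all values in HLG 17.7% were above 0, so little can be read from the 0 of 5 for GNAL.

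**Figure D2:**
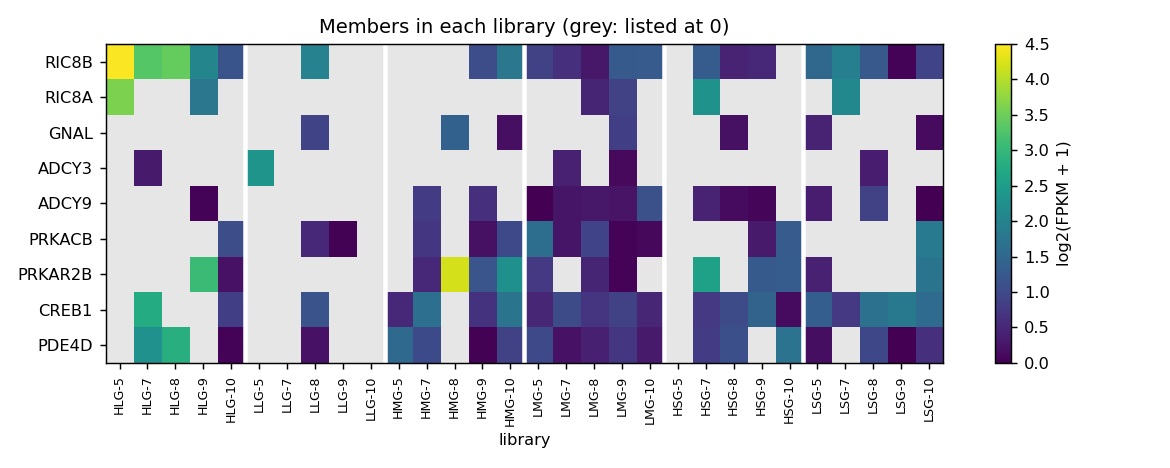
The 9 genes (rows) in the 30 libraries (columns, white lines between groups), coloured by log2(FPKM + 1), with grey where a gene is listed at 0. RIC8B fills all columns of HLG, LMG and LSG, the LLG columns are mostly grey, and PRKAR2B is highest in HMG-8 at 17.57 FPKM.

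The adenylyl cyclases make cAMP and had, with GNAL, the lowest mean FPKM of the 9 genes over the 30 libraries. ADCY3 (102169019) was above 0 in 5 libraries, at 4.04 in LLG-5, 0.25 in HLG-7, 0.33 in LMG-7, 0.08 in LMG-9 and 0.27 in LSG-8. ADCY9 (102188104) was above 0 in 14 libraries, among them 5 of 5 LMG, and its highest value was 1.17 in LMG-10. In large follicles ADCY9 was above 0 only in HLG-9, at 0.03. LMG is also the group with the most features above 0, and its part in these counts was not tested. GNAL, ADCY3 and ADCY9 did not reach 0.5 FPKM in 5 libraries and were not tested, whereas the other 6 genes did. RIC8A did so in exactly 5 libraries, among them HLG-5 and HLG-9, so its comparisons rest on the libraries that let it pass, those of large follicles most of all.

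Of the protein kinase A subunits, PRKAR2B (102174359) encodes the regulatory subunit RII beta, known to be induced by FSH in granulosa cells of rodents. Its FPKM was 0, 0.41, 17.57, 1.28 and 3.81 in HMG and 0.68, 0, 0.38, 0.03 and 0 in LMG (libraries 5, 7, 8, 9 and 10). In 3 HMG libraries it was higher than in any LMG library. The log2 difference was 1.38 ± 0.62 (SE, 95% interval 0.13 to 2.63, unadjusted p = 0.0314 and adjusted p = 0.885 in limma), so it was not called. Without HMG-8, a library of 1521 features above 0 that holds the highest value, it was 0.74. In HSG the values were 0, 4.96, 0, 1.43 and 1.48 and in LSG 0.33, 0, 0, 0 and 2.33, with a log2 difference of 0.60 ± 0.62 (SE, adjusted p = 0.929 in limma). Averaged over both sizes it was 0.99 ± 0.44 (SE, unadjusted p = 0.0289 and adjusted p = 0.712 in limma). Without HMG-8 or without HSG-7, 0 of the genes tested had an unadjusted p under 0.05 in limma in this average. In HMG against LMG the same held without HMG-8, HMG-10, LMG-7, LMG-9 or LMG-10. In large follicles PRKAR2B was at 7.38 in HLG-9, 0.17 in HLG-10 and at 0 in the other 8 libraries.

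PRKACB (102168790), the beta catalytic subunit of the kinase, was above 0 in 14 libraries, with a highest value of 2.56 in LSG-10. All 5 LMG libraries had it, between 0.03 and 2.07, and so did 3 HMG libraries, between 0.15 and 0.98. The log2 difference was -0.21 ± 0.37 in medium and -0.04 ± 0.37 in small follicles (SE, high against low fertility, adjusted p = 1.0 and 0.998 in limma), and the sign of the latter depended on the processing.

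CREB1 (102186065), the transcription factor at the end of the pathway, was above 0 in 21 libraries, as many as RIC8B, and both were above 0 in 18. Only 3.09% of all features were above 0 in at least 21 libraries. Such frequent features overlap often, and no share over all features was computed, so nothing is read from the 18. Its FPKM was 0.41, 2.13, 0, 0.58 and 2.31 in HMG and 0.40, 1.07, 0.59, 0.84 and 0.40 in LMG. It was 0, 0.68, 1.05, 1.71 and 0.10 in HSG and 1.53, 0.68, 2.26, 2.54 and 1.96 in LSG. In LSG 3 libraries were higher than any HSG library, while in medium follicles the LMG values lay within the range of HMG. The log2 difference was -0.76 ± 0.53 in HSG against LSG (SE, 95% interval -1.83 to 0.30, adjusted p = 0.879 in limma) and 0.19 ± 0.53 in HMG against LMG (adjusted p = 1.0 in limma). In large follicles CREB1 was at 5.85 in HLG-7, 0.78 in HLG-10 and 1.22 in LLG-8, and at 0 in the other 7 libraries.

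PDE4D (102183183), which degrades cAMP, was above 0 in 20 libraries, 19 of which also had CREB1. Of all features, 95.7% were above 0 in fewer libraries than PDE4D and 96.9% in fewer than CREB1. Nothing is read from the overlap of 2 such frequent genes. In HLG its FPKM was 0, 3.87, 6.13, 0 and 0.03, and in LLG it was 0.16 in LLG-8 and 0 otherwise. In HMG it was 1.89, 1.01, 0, 0.02 and 0.84, and in LMG 1, 0.16, 0.31, 0.64 and 0.26. The values of LMG lay within those of HMG, and the log2 difference was 0.16 ± 0.49 (SE, adjusted p = 1.0 in limma). In HSG it was 0, 0.75, 1.13, 0 and 2.28 and in LSG 0.12, 0, 0.97, 0.01 and 0.55, with a log2 difference of 0.36 ± 0.49 (SE, adjusted p = 0.961 in limma).

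Over the 6 genes tested, limma called 0 between the fertility classes in medium follicles (0% of 6058 features) and 0 in small follicles (0%). At an unadjusted p under 0.05 there was 1 of the 6 in medium follicles (5.15% of all features) and 0 in small follicles (6.39%). The log2 difference was above 0 for 3 of the 6 genes in both sizes, against 42.8% of all features in medium and 40.8% in small follicles. Its median over the 6 genes was -0.02 and 0.00, beside -0.07 and -0.09 over all features. Averaged over both sizes 0 of 6 genes were called (0% of all features), and 1 had an unadjusted p under 0.05 (6.50%), while 2 had a log2 difference above 0 (39.2%). The difference between medium and small follicles in the fertility contrast was called for 0 of the 6 genes (0% of all features), with 0 at an unadjusted p under 0.05 (5.48%) and 3 above 0 (52.0%). In HLG against LLG all 6 genes had a log2 difference above 0, as did 61.1% of all features, and since RIC8B was picked there nothing is read from it.

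**Figure D3:**
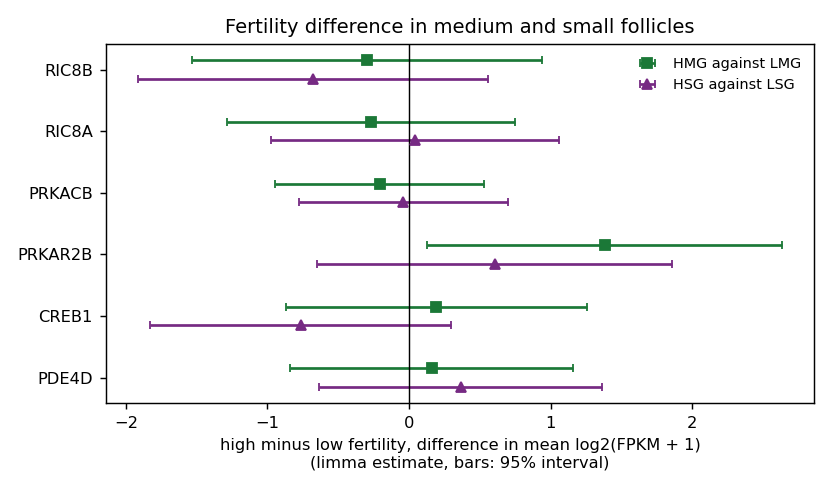
High minus low fertility difference in mean log2(FPKM + 1) for the 6 genes tested, in medium (squares) and small follicles (triangles), as limma estimates with 95% intervals. The interval of PRKAR2B in medium follicles, 0.13 to 2.63, lies above 0 before adjustment, and all other intervals include 0.

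Between follicle sizes, averaged over fertility, 0 of 6 genes were called in medium against small (0.0165% of all features), with 0 at an unadjusted p under 0.05 (5.13%) and 3 above 0 (57.3%). RIC8B aside, 5 genes were tested for large follicles, and limma called 0 of them against medium (0% of all features) and 0 against small ones (0%). The unadjusted p was under 0.05 for 0 of the 5 in both (11.5% and 8.42% of all features). In large against medium follicles 4 of the 5 genes were below 0, from -0.61 ± 0.44 for PRKAR2B to -0.07 ± 0.35 for PDE4D (SE, lowest adjusted p = 0.555 in limma), and RIC8A, which passed the filter through 2 HLG libraries, was at 0.40 ± 0.36. The median of the 5 genes was -0.32 and that of all features -0.25, where only 21.7% of all features were above 0. When the fit also held each library's number of detected features, the median of all features moved to -0.03, and CREB1, PDE4D and PRKACB turned to 0.16, 0.02 and 0.02. PRKAR2B and RIC8A kept their signs there, PRKAR2B at -0.53 or below and RIC8A at 0.35 or above. The part of detected features in these differences was not tested. In large against small follicles 1 of the 5 genes was above 0 (27.6% of all features), and CREB1 had the lowest adjusted p (-0.58 ± 0.37 SE, adjusted p = 0.615 in limma).

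The number of the 9 genes above 0 was also set beside the number of detected features. The library with the most features, LMG-9 with 9256, had all 9 genes above 0, and 3 libraries with 301 (LLG-7), 719 (HSG-5) and 988 features (LLG-10) had 0. By group the genes were above 0 in 37.8% of values in HLG, 15.6% in LLG, 46.7% in HMG, 73.3% in LMG, 44.4% in HSG and 53.3% in LSG. Over the 6058 features tested the shares were 35%, 21.2%, 52.2%, 71.4%, 44.3% and 53.7%. The groups thus stood in the same order for the 9 genes as for the features tested. In HLG, the second lowest group in that order, RIC8B was above 0 in all 5 libraries, as were 0.651% of all features. RIC8B was picked on these libraries, so nothing is read from this share.

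**Figure D4:**
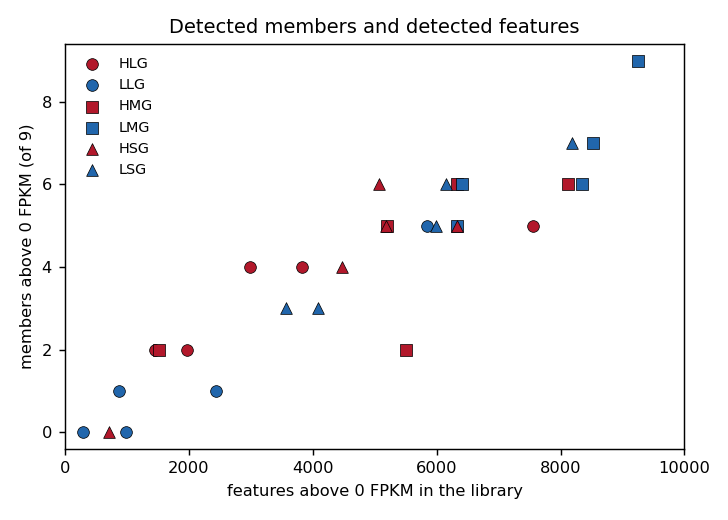
Number of the 9 genes above 0 FPKM in a library against its number of features above 0, with 1 point per library, colour for fertility and shape for size. The 4 libraries with the fewest features show 0 or 1 gene and LMG-9, with 9256 features, shows 9, while HMG-5 shows 2 genes at 5515 features.

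The other genes of the pathway were looked at as a list of 121 symbols, of which 111 were in the table. They were above 0 in a median of 9 libraries, against 5 for all features with a symbol and 14 for the 9 genes above, which were chosen with results known. The receptors were among the rarest. FSHR was at 1.26 in HSG-9 alone, and LHCGR was at 38.74 in HSG-5, 0.92 in HMG-7, 0.36 in LMG-9 and 0.03 in HLG-10. HSG-5, with the highest LHCGR, showed 0 of the 9 genes. It had only 719 features above 0 and is absent from the study's mapping list, so nothing is read from this. The 13 genes of A-kinase anchoring proteins, which tether protein kinase A, had the highest median, at 15 libraries, and AKAP11 was above 0 in 23. Other adenylyl cyclases had a median of 5 libraries, and ADCY7 was the most frequent, in 12.

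**Figure D5:**
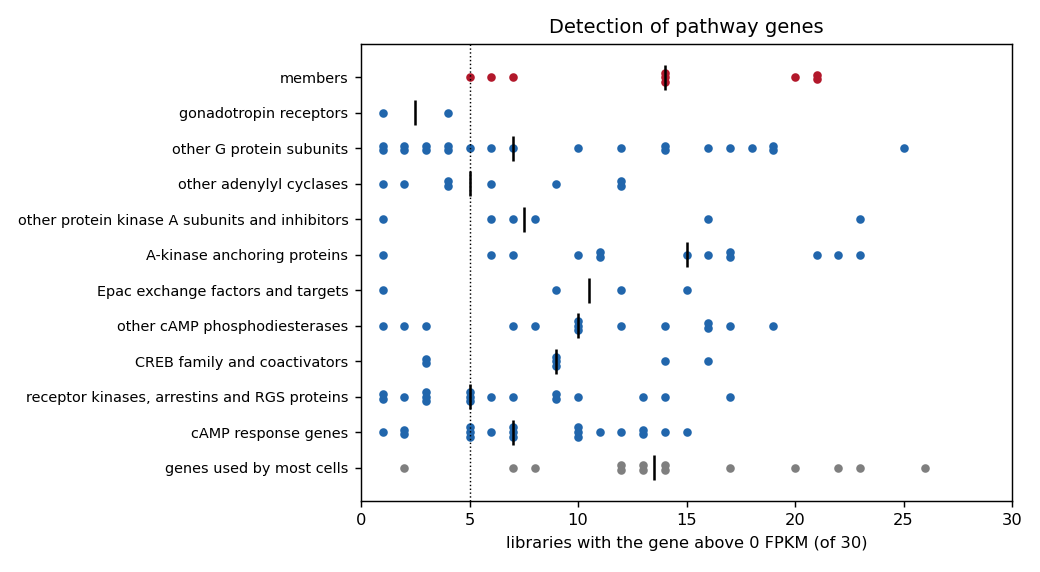
Number of libraries (of 30) in which each gene was above 0 FPKM, with 1 point per gene, a black bar at the median of the list and a dotted line at 5, the median of all features with a symbol. The gonadotropin receptors lie at 1 and 4 libraries, and the A-kinase anchoring proteins have a median of 15.

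In the remaining lists the most frequent gene was GNG4 (G protein gamma subunit, 25 libraries), PKIA (inhibitor of protein kinase A, 23), PDE10A (phosphodiesterase, 19), GRK3 (receptor kinase, 17), CREBBP (CREB coactivator, 16), NR4A3 (nuclear receptor induced by cAMP, 15) and RAP1B (GTPase downstream of the cAMP sensor Epac, 15). The filter left 46 of the 111 genes, and limma called 0 of them in either direction in every comparison tested. At an unadjusted p under 0.05 there were 0 higher and 2 lower in HMG against LMG (5.15% of all features in either direction), 1 and 1 in HSG against LSG (6.39%), 1 and 1 averaged over both sizes (6.50%) and 0 and 1 for the fertility difference between sizes (5.48%). Medium against small follicles had 2 and 1 (5.13%), large against medium had 1 and 5 (11.5%), and large against small had 3 and 4 (8.42%). The median log2 difference of the 46 genes was -0.07 between the fertility classes in medium and -0.04 in small follicles, beside -0.07 and -0.09 over all features.

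Genes with a pattern like that of RIC8B were sought by Pearson correlation of log2(FPKM + 1) over the 30 libraries, as a description. The libraries differ in detected features, and the HLG values on which RIC8B was picked enter it. The highest were ATP5SL (r = 0.71), the complement receptor C3AR1 (0.71), KLHL3 (0.70), a substrate adaptor of a ubiquitin ligase, the Wnt receptor FZD6 (0.70) and the Hippo pathway kinase LATS1 (0.68). All 7 libraries with ATP5SL, all 12 with C3AR1 and 17 of 19 with LATS1 also had RIC8B. RIC8B was above 0 in 21 of 30 libraries and these genes were chosen for their correlation with it, so nothing is read from this overlap. Each was above 0 in at most 4 HLG libraries. Without HLG-5 and HLG-8, the libraries with the highest RIC8B, r was 0.31 for ATP5SL, 0.68 for C3AR1, 0.65 for KLHL3, 0.72 for FZD6 and 0.45 for LATS1. HLG-7, HLG-9 and HLG-10, on which RIC8B was also picked, stayed in, and the genes had been chosen by r itself. The values of r that stayed high are therefore no support for a shared pattern. Among the other members tested, RIC8A ranked 34th of 6057 features (r = 0.55) and PDE4D 414th (0.31). RIC8A was highest in HLG-5 and PDE4D in HLG-8, libraries on which RIC8B was picked. Nothing is read from their ranks, and r without HLG-5 and HLG-8 was not computed for them. CREB1 had r = 0.16, PRKAR2B -0.06 and PRKACB -0.13.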

How the data were processed

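The authors deposited a table of FPKM values with 2 decimals for 20125 features in 30 libraries. Per the study's methods, rRNA was removed, unique alignments to the goat genome were kept, duplicates were removed with picard, and FPKM was computed with Cufflinks 2.2.1. The aligner and genome build are not given in the sources used here. Symbols came from the RefSeq gene table of ARS1.2, with an entry for 17945 of 17946 NCBI gene numbers, and its gene order gave the neighbours of RIC8B, while no coordinates are reported.

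The members, lists and tests were chosen with earlier results of these data known. limma 3.58.1 (R 4.3.3) was fitted to log2(FPKM + 1) with all 6 group means and a robust, trended prior, on the 6058 features that exceeded 0.5 FPKM in 5 or more libraries. Adjusted p-values follow Benjamini and Hochberg over these features (threshold 0.05, two-sided), and log2 differences understate changes of low genes. Exact tests used Python 3.11.15 and scipy 1.17.1, with all 252 assignments of libraries. The fit was tested on simulated data. Named genes were the 9 members, the 5 symbols with the highest correlation with RIC8B, the most frequent gene of each pathway list, FSHR and LHCGR. Alternatives were another pseudocount, 2 other filters, a block, a covariate, rescaling, sample weights, fewer groups, and fits without single libraries or without the 4 libraries (HLG-5, HSG-5, LLG-5 and LLG-7) absent from the study's mapping list.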

Additional observations from a re-analysis of the deposited data

Results flagged for a closer look

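In 53 sets of 5 libraries (a gene in a group, or the number of the 9 genes above 0 in a group), 27 values stood far from the others by Dixon's criterion, whose rate of about 1 in 20 sets by chance assumes normally distributed values and does not hold for sets that are mostly 0. In 14 of them a single library was above 0, which meets the criterion by itself. These were RIC8B in LLG-8 (2.98 FPKM), RIC8A in HSG-7 (3.97) and LSG-7 (3.28), GNAL in LLG-8 (0.89), LMG-9 (0.79) and HSG-8 (0.15), and ADCY3 in HLG-7 (0.25), LLG-5 (4.04) and LSG-8 (0.27). The others were ADCY9 in HLG-9 (0.03), PRKACB in HLG-10 (1.08) and LSG-10 (2.56), CREB1 in LLG-8 (1.22) and PDE4D in LLG-8 (0.16).

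The other 13 had at least 2 libraries above 0. RIC8A was at 11.25 FPKM in HLG-5, next to 2.45 in HLG-9. PRKAR2B was at 17.57 in HMG-8 against at most 3.81 in the group, at 7.38 in HLG-9 against 0.17 and at 2.33 in LSG-10 against 0.33. CREB1 was at 5.85 in HLG-7 against 0.78. PRKACB was at 0.41 in LLG-8 against 0.02 and at 1.46 in HSG-10 against 0.26. ADCY9 was at 1.17 in LMG-10 against 0.23 and at 0.37 in HSG-7 against 0.09. GNAL was at 1.62 in HMG-8 against 0.14 and at 0.36 in LSG-5 against 0.09, and ADCY3 was at 0.33 in LMG-7 against 0.08. LLG-8 showed 5 of the 9 genes, while the other LLG libraries showed 0 or 1.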

How the results depend on the processing

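In the comparisons tested, no alternative gave a call for any of the genes. The described log2 difference of RIC8B in HLG against LLG was 4.94 with a pseudocount of 0.1, 1.83 without the 4 libraries absent from the mapping list, and 2.10 to 2.92 without single libraries. Without single libraries it ranged from -0.60 to -0.15 in HMG against LMG, from -0.95 to -0.48 in HSG against LSG, from -0.64 to -0.39 averaged over both, and from -0.23 to 0.033 in medium against small. The exact permutation test of HSG against LSG gave p = 0.0397 (adjusted 0.0794) without LSG-9 and more without any other library. With a pseudocount of 0.1 RIC8B was at -1.43 in medium and -1.63 in small follicles, PRKAR2B at 2.66 in HMG against LMG and CREB1 at -1.79 in HSG against LSG, all over 1.5 times their values with a pseudocount of 1.

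Values of other genes changed sign, most of them near 0, and the cause was not tested. In large against medium, CREB1 and PRKACB started further away, at -0.33 and -0.32 with a pseudocount of 1 and no covariate. With a pseudocount of 0.1 CREB1 and PDE4D in HMG against LMG were at -0.0051 and -0.065, and PRKACB in HSG against LSG was at 0.22. With detected features as a covariate PRKACB was at 0.092 in HSG against LSG, 0.023 in large against medium and 0.058 in large against small, CREB1 at 0.16 and PDE4D at 0.022 in large against medium, and PDE4D at 0.064 in large against small. Without the 4 libraries PRKACB was at 0.042 in HSG against LSG, and PDE4D at -0.021 in medium against small, 0.071 in large against medium and 0.050 in large against small. PDE4D in large against small was at 0.016 after rescaling and 0.0018 with sample weights, where RIC8A in HSG against LSG was at -0.019.

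Without single libraries PRKACB ranged from -0.36 to 0.050, CREB1 from -0.013 to 0.42 and PDE4D from -0.051 to 0.33 in HMG against LMG. RIC8A ranged from -0.062 to 0.16 and PRKACB from -0.28 to 0.33 in HSG against LSG, and PRKAR2B from -0.11 to 0.41 and PDE4D from -0.036 to 0.19 in medium against small. PDE4D ranged from -0.30 to 0.057 in large against medium and from -0.23 to 0.13 in large against small. The stricter filter left CREB1 and RIC8B alone of the 6 genes, and RIC8A could not be fitted as tested without the libraries that let it pass.

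The libraries share only label numbers. Correlations between libraries of 1 number were -0.03 to 0.04 for HMG and LMG and -0.03 to 0.01 for HSG and LSG. Over all groups they reached 0.12, with a median of 0.006, against a median of -0.002 for libraries of different numbers. Of 30 libraries, 9 correlated best with their own number. With 5 numbers some would do so by chance, and this was not tested. With the replicate block RIC8B was at -0.30 ± 0.64 in medium and -0.68 ± 0.64 in small follicles (SE, high against low fertility), 0 of the genes were called, and the 1 feature called in medium against small was not. Read depth was not used here, and whether a 0 is a missed or an absent transcript cannot be told apart.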

Other observations

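The genes next to RIC8B in the RefSeq order of ARS1.2, chosen after the values had been seen, did not share its pattern in HLG. RIC8B was picked for that pattern, and only 0.651% of all features were above 0 in all 5 HLG libraries. Most genes thus lack it wherever they lie, and an effect of the place was not tested. Of the nearest protein-coding genes in the table, TCP11L2 and RFX4 on one side were above 0 only in HLG-7 of that group (4.57 and 2.17 FPKM), TMEM263 on the other side only in HLG-10 (0.27) and MTERF2 only in HLG-9 (1.09).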
